A study of Schizosaccharomyces pombe with 4 samples.

Results

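The ole1 domain of fission yeast (Schizosaccharomyces pombe) is a run of 15 neighbouring tiling probes on the right arm of chromosome III, starting at array positions 1393201 to 1397401, over the acyl-CoA desaturase gene ole1. Its limits had been drawn from the ON minus OFF ratio in the wt cells of this same experiment. Ole1 was chosen on that difference in wt against clr3-CDx2. The contrasts of both genotypes are therefore given here as a description and support nothing. The 15 probes are part of 41551 non-control probes on the array. They were read together with 32 probes in 5 kb on each side, of which 31 were used because 1 spot was marked as an outlier. Of the 15 probes, 8 lay in ole1 itself.

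The values describe newly incorporated histone H3, seen as the T7-tagged form (H3-T7), in 4 groups of 1 array each. Every group carried cdc25-22, a mutation that stops the cell cycle before mitosis at high temperature, together with the H3 tag-exchange system and a tetO-ade6+ reporter. The growth protocol writes the mutation's numbers in the other order. The genotypes were H3T7 cdc25-22 (wt in the titles) and H3T7 cdc25-22 clr3-CDx2. Cells were grown at 26 °C, held at 36 °C for 4 h to arrest them at G2/M, and then given 1 µM β-estradiol for 2 h, which let Cre recombinase swap the HA tag of H3 for T7. In the ON state (tetR-clr4-ON) the TetR-Clr4 fusion was expressed from a thiamine-repressible promoter during 20 generations without thiamine. OFF cells (tetR-clr4-OFF) were kept in 5 µg/ml thiamine with 2.5 µg/ml tetracycline. The groups were therefore wt OFF, wt ON, clr3-CDx2 OFF and clr3-CDx2 ON. The ON and OFF cultures differed in thiamine and tetracycline as well as in TetR-Clr4, and these cannot be told apart. No source used here says what the CDx2 change is or where the reporter sits.

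Ole1 is the desaturase that puts the double bond into saturated fatty acids bound to coenzyme A, a reaction that uses oxygen, and it supplies the monounsaturated fatty acids of membranes and storage lipids. In fission yeast the transcription factors Cbf11 and Mga2 are known as activators of lipid genes. Clr4 is the histone H3 methyltransferase of heterochromatin, and Clr3, a histone deacetylase that acts with it, limits histone exchange there. Tagged H3 that enters chromatin in arrested cells does so without DNA replication, and such exchange is known to be high over strongly transcribed genes and their promoters.

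In assembly ASM294v3, ole1 (SPCC1281.06C) spans chromosome III from 1392544 to 1394876 on the minus strand, 2333 bp with a coding sequence of 1440 bp from 1392690 to 1394129. Its leader, the untranslated part before the coding sequence, is 747 bp long. The genome build behind the array positions is not given. The right arm of chromosome III was laid on ASM294v3 at the offset of -890 bp where the input signal followed the GC content of the assembly best, with a correlation of 0.217 against at most 0.017 at offsets further than 3 kb away. Over 4 blocks of the arm the best offset had an SD of 86.6 bp, so a probe within about 100 bp of a gene boundary could lie on either side. As placed, the domain runs from 1392311 to 1396570. It begins in the 455 bp between rsc7 and ole1, covers ole1, and ends inside the 2311 bp between the start of ole1 and the next gene, gst4.

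The 300 bases before the annotated start of ole1 (RefSeq, ASM294v3, chrIII:1394877-1395176, minus strand) are shown because 1 probe, placed 164 bp upstream of the start, had the highest ON minus OFF ratio of the domain in clr3-CDx2 and 1 of the higher ones in wt. The capitals mark the run TATATAA, which begins 36 bases before the start and is a form of the element that binds the TATA-box factor.
ole1 promoter: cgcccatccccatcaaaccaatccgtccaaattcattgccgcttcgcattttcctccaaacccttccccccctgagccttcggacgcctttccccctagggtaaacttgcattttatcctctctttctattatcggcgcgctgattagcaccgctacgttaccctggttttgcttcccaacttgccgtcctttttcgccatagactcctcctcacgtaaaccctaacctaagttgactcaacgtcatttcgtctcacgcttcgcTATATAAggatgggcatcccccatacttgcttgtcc
The window had a GC content of 51.0%. TATATAA, searched on both strands and chosen after the sequence had been read, was present in 18.6% of 5112 protein-coding promoter windows of this length. TATAAA was not in the window and was present in 51.2% of the others. The elements GTGGGAA and GTGAGAA, which CSL factors such as Cbf11 recognise, were not in the window either, and 1.45% and 3.09% of promoter windows held them. Over the whole 2311 bp between ole1 and gst4 there were 2 matches to GTGGGAA, 1848 and 2003 bases from the start of ole1, and 1 match to GTGAGAA at 1293 bases. CACCCCAC, a core of sterol-regulatory elements, was in neither interval. These matches describe letters only.

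The median H3-T7 value over the domain was below the array median in both OFF arrays, and every domain probe was above it in wt ON. All values are log2 of ChIP (Cy5) over input (Cy3), with the array median at 0, and an SD over probes is not an error between replicates. With 1 array per group no difference had a replicate check and no p-value could be given. In wt OFF the 15 probes ranged from -0.57 to 0.30 with a median of -0.13. In wt ON they ranged from 0.21 to 1.45 with a median of 0.80. The ON probes started about where the OFF probes ended, and the wt ranges overlapped only narrowly. In clr3-CDx2 OFF the probes ranged from -0.78 to 0.55 with a median of -0.27, and in clr3-CDx2 ON from -0.53 to 0.65 with a median of 0.29. Here the ranges overlapped over most of their width.

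**Figure D1:**
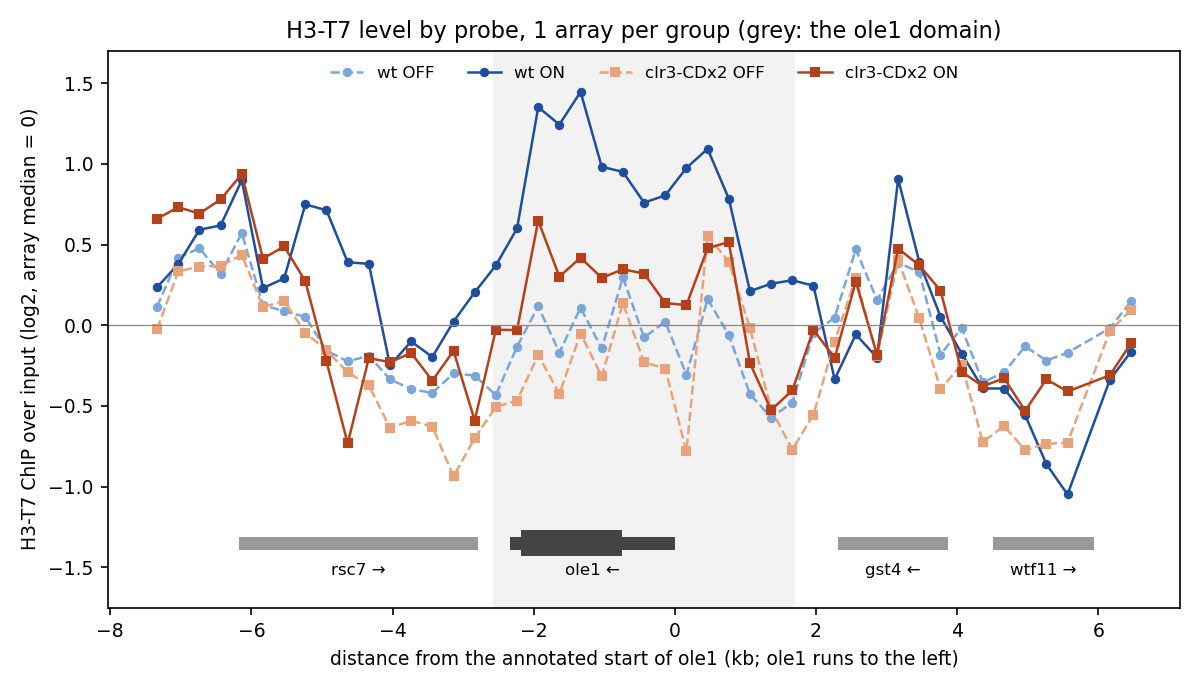
H3-T7 level (log2 of ChIP over input, array median at 0) of each used probe against its placed distance from the start of ole1 in kb, 1 line per array, with gene boxes below and the domain in grey. The wt ON line lies above the other arrays over all 15 domain probes, from 0.21 to 1.45, and is still above them at the first probe outside the right edge, at 0.24.

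The ON array was higher than the OFF array over the domain by 0.95 in wt (SD 0.26 over 15 probes, 1.93-fold) and by 0.39 in clr3-CDx2 (SD 0.33, 1.31-fold). In wt, 15 of 15 probes were at least 1.5-fold higher in ON, against 7.62% of all mapped probes, and the limits of the domain were chosen on this contrast. In clr3-CDx2, 4 of 15 were at least 1.5-fold higher, against 5.68% of all mapped probes, and 12 of 15 were above 0. The wt difference exceeded the clr3-CDx2 difference at every probe, by 0.29 to 1.01 with a mean of 0.56 (SD 0.24). For scale, the array was divided into 2715 consecutive stretches of 15 probes: 2.21% were at least 1.5-fold higher in wt ON, 0.994% in clr3-CDx2 ON, and 0.479% had a wt difference at least 1.5-fold above the clr3-CDx2 difference. The domain's own mean, 1.47-fold, lay just under that mark. Choosing the domain on the wt contrast raises this difference as well, and ole1 was chosen on wt against clr3-CDx2. Nothing is therefore read from these shares.

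The channels of the array were then read apart, each centred on its own array median. Cy5 had been detrended on the OFF arrays and not on the ON arrays, so ON minus OFF on Cy5 also compares unlike processing. What this step alone adds was not tested. The ChIP channel carried the difference in wt: Cy5 was higher in ON by 0.93 (SD 0.23), while the input differed by 0.00 (SD 0.19). In clr3-CDx2 both channels moved: Cy5 was higher in ON by 0.70 (SD 0.39) and Cy3 by 0.33 (SD 0.21). The input was above 0 in that difference at 14 of 15 probes, against 8 of 15 in wt. Read on Cy5 alone, wt exceeded clr3-CDx2 by 0.23, and 12 of 15 probes shared the direction. The SD over probes was 0.30, a spread along the domain and not an error. The remainder of the ratio's 0.56 was in the input, where the same difference was -0.33 (SD 0.29). A ratio of ChIP to input does not show which of the channels holds an error, and this was not tested.

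**Figure D2:**
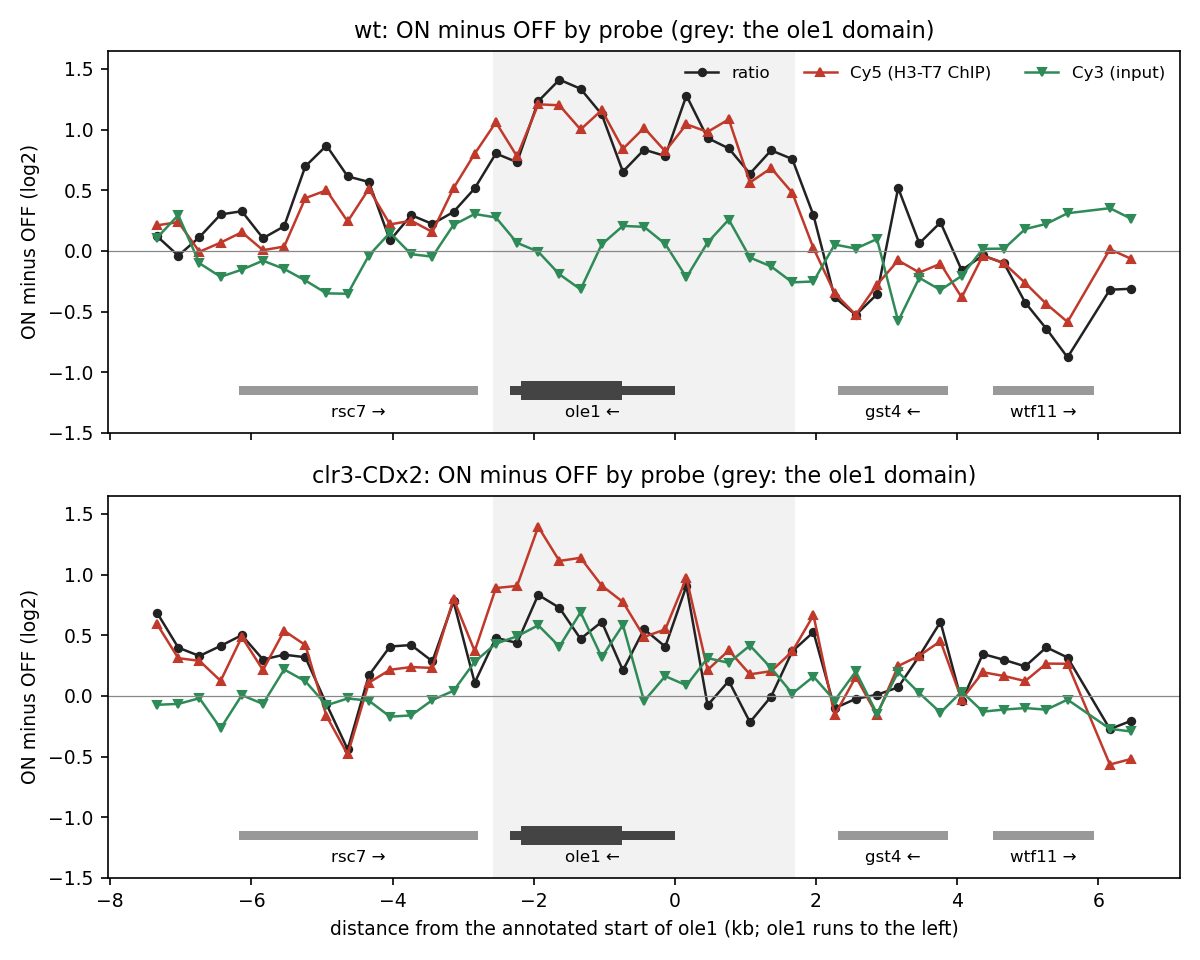
ON minus OFF (log2) by probe for the ratio, Cy5 (ChIP) and Cy3 (input), wt above and clr3-CDx2 below, against the placed distance from the start of ole1 in kb. In wt the Cy3 line runs on both sides of 0 across the domain, from -0.32 to 0.28 with a mean of 0.00. In clr3-CDx2 the Cy3 line is above 0 at 7 of 8 ole1 probes, with 1 leader probe at -0.04.

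The split by channel was sharpest over the ole1 coding sequence, covered by 4 probes. Their mean ratio was -0.02 in wt OFF, 1.26 in wt ON, -0.24 in clr3-CDx2 OFF and 0.42 in clr3-CDx2 ON. The ON minus OFF ratio was thus 1.28 (SD 0.12) in wt and 0.66 (SD 0.16) in clr3-CDx2. On Cy5 the same difference was 1.14 in each genotype (SD 0.10 in wt and 0.20 in clr3-CDx2), and the genotypes differed by 0.00 (SD 0.20). On Cy3 it was -0.12 (SD 0.17) in wt and 0.50 (SD 0.17) in clr3-CDx2. Over the coding sequence the ON minus OFF differences of the genotypes were thus level on Cy5 and apart on Cy3. The Cy5 levels themselves were not level: clr3-CDx2 minus wt was -0.50 in OFF (SD 0.10) and -0.50 in ON (SD 0.11), lower at 4 of 4 probes in each state. On Cy3 the same comparison gave -0.28 (SD 0.08) in OFF and 0.34 (SD 0.23) in ON. The ratio difference in ON, -0.84 (SD 0.17), thus held more of Cy5 than of Cy3.

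Upstream of ole1 the ON minus OFF difference on Cy5 was larger in wt. In the 6 domain probes between ole1 and gst4 the ratio was higher in ON by 0.88 (SD 0.22) in wt and by 0.18 (SD 0.41) in clr3-CDx2. On Cy5 the values were 0.81 (SD 0.26) and 0.38 (SD 0.30), with wt above clr3-CDx2 at 6 of 6 probes. On Cy3 they were -0.06 (SD 0.19) and 0.22 (SD 0.15). In the leader, with 3 probes, the wt and clr3-CDx2 values were 0.76 and 0.39 in the ratio, 0.89 and 0.60 on Cy5, and 0.15 and 0.23 on Cy3. Of these, 1 probe is placed 736 bp into the leader of 747 bp, so it could lie in the coding sequence. Its Cy3 difference in clr3-CDx2 was 0.58, beside -0.04 and 0.16 at the other leader probes. Chromatin was sheared to about 1000 bp, more than 3 probe spacings of 300 bp, so neighbouring probes shared fragments and segments of 3 to 6 probes are not independent.

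Single probes upstream differed among themselves. The probe 164 bp before the start, inside the printed window, read -0.31 in wt OFF, 0.97 in wt ON, -0.78 in clr3-CDx2 OFF and 0.12 in clr3-CDx2 ON. Its ON minus OFF ratio was 1.28 in wt and 0.91 in clr3-CDx2, with Cy3 at -0.22 and 0.09. The next probe, 464 bp before the start, read 0.16, 1.09, 0.55 and 0.48 in the same order. It was already high in clr3-CDx2 OFF, so its difference was 0.93 in wt and -0.08 in clr3-CDx2. The probe at 764 bp was alike, with -0.06, 0.78, 0.39 and 0.52. These adjoining probes were the only domain probes apart from 1 in the leader with a value above 0 in clr3-CDx2 OFF.

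**Figure D3:**
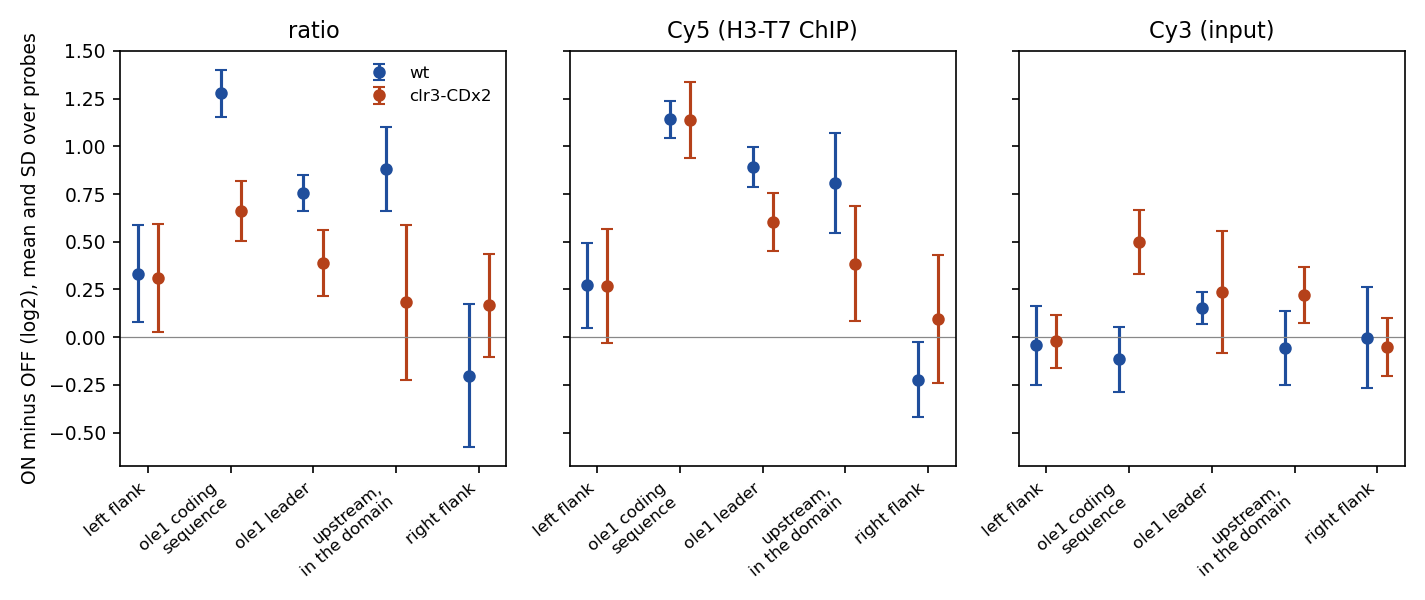
ON minus OFF (log2) as mean and SD over the probes of each segment, wt in blue and clr3-CDx2 in orange, for the ratio, Cy5 and Cy3. Over the ole1 coding sequence the Cy5 points coincide at 1.14 while the Cy3 points lie at -0.12 and 0.50; upstream, Cy5 is 0.81 in wt and 0.38 in clr3-CDx2.

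The genotypes were compared within each state as well. In OFF, clr3-CDx2 minus wt was -0.09 (SD 0.29) over the domain, a mean over segments that differed in direction. Over the 8 probes of the ole1 gene it was -0.23 (SD 0.07), below 0 at 8 of 8, while the upstream segment was at 0.09 (SD 0.40). In ON, clr3-CDx2 minus wt was -0.65 (SD 0.20, 1.57-fold lower) over the domain, and 15 of 15 probes were lower. At least 1.5-fold lower were 11 of 15 probes, against 3.47% of mapped probes, and 0.0368% of the 15-probe stretches had a mean that far down. The limits of the domain were drawn where wt ON was high, so this contrast was lowered by that choice and nothing is read from these shares. On Cy5 the ON arrays differed by -0.48 (SD 0.16) with 15 of 15 probes lower, and on Cy3 by 0.17 (SD 0.23). These comparisons use the same 4 arrays as the ON minus OFF differences and are not separate evidence.

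The domain's edges differed in steepness. At the left edge the wt ON minus OFF ratio was 0.80 at the outermost domain probe and 0.52 at the probe just outside it, placed in the end of rsc7. At the right edge it was 0.76 inside and 0.29 just outside, and the following probe was at -0.38. Over the 31 flanking probes the mean ON minus OFF ratio was 0.07 (SD 0.41) in wt and 0.24 (SD 0.28) in clr3-CDx2. The left and right flanks differed, with means of 0.33 and -0.20 in wt and 0.31 and 0.17 in clr3-CDx2. Taken relative to the pooled flanks, the domain was higher in ON by 0.87 in wt and by 0.15 in clr3-CDx2. These values depend on which side is used.

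The neighbours did not share one pattern. Rsc7, a subunit of the RSC chromatin remodelling complex, was higher in ON by 0.40 (SD 0.25 over 12 probes) in wt and 0.26 (SD 0.30) in clr3-CDx2. Within rsc7, 4 probes formed a separate high stretch in wt, at 0.70, 0.87, 0.61 and 0.57, with Cy3 between -0.35 and -0.04. In clr3-CDx2 the same probes were at 0.32, -0.07, -0.44 and 0.17. For gst4, named as a glutathione S-transferase, the difference was -0.01 in wt and 0.20 in clr3-CDx2. For akr7 beyond rsc7, with its 5 probes lying partly outside the flank, it was 0.06 and 0.34. The last gene, wtf11, belongs to the wtf family of spore killer genes and was lower in wt ON by -0.51 and higher in clr3-CDx2 ON by 0.31, each over 4 probes. Because wtf genes resemble each other, their probes may also bind other copies.

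Across the genome, 4612 protein-coding genes had at least 3 probes, and the mean over a gene's probes was its value. Levels of the ole1 gene were 0.00 in wt OFF, 1.02 in wt ON, -0.23 in clr3-CDx2 OFF and 0.30 in clr3-CDx2 ON. The order was thus wt ON, clr3-CDx2 ON, wt OFF and clr3-CDx2 OFF, and the last 3 lay within 0.53 of one another, with SDs over probes of 0.16 to 0.20. In wt, ole1 was higher in ON by 1.01, rank 14 of 4612, where 2.3% of genes were at least 1.5-fold higher. In clr3-CDx2 it was higher by 0.53, rank 124 and below the 1.5-fold mark that 1.69% of genes passed. On Cy5 alone the ranks were 8 in wt (1.00) and 10 in clr3-CDx2 (0.91), where 1.26% and 1.67% of genes were at least 1.5-fold higher. The wt ranks follow from how the domain was chosen. The clr3-CDx2 difference was part of the choice of ole1 as well, so all these ranks are given as a description.

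Between ON and OFF, the input of ole1 differed more than that of most genes in the clr3-CDx2 arrays. A higher input in clr3-CDx2 ON lowers the ratio there, and ole1 was chosen on wt against clr3-CDx2. The Cy3 and Cy5 ranks below are therefore a description as well. Its Cy3 level was -0.53 in wt OFF, -0.52 in wt ON, -0.75 in clr3-CDx2 OFF and -0.35 in clr3-CDx2 ON. The wt arrays were level, and clr3-CDx2 was lower in OFF and higher in ON. The Cy3 difference of 0.40 in clr3-CDx2 ranked 2 of 4612 genes, behind the gene SPBC16E9.20 at 0.48, a name looked up after the values were seen. No gene was 1.5-fold higher on Cy3 in that comparison (0%). The wt minus clr3-CDx2 difference on Cy3 was less extreme, at -0.39, rank 73 from the lowest. In OFF, the Cy3 difference of clr3-CDx2 from wt, -0.21, ranked 13 from the lowest, and the Cy5 difference, -0.44, ranked 32 from the lowest. The same Cy3 difference in ON, 0.18, ranked 461 from the highest. In ON, the ratio difference of -0.71 ranked 8 from the lowest, where 0.585% of genes were at least 1.5-fold lower, and this rank too uses the wt ON array on which the domain was chosen.

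**Figure D4:**
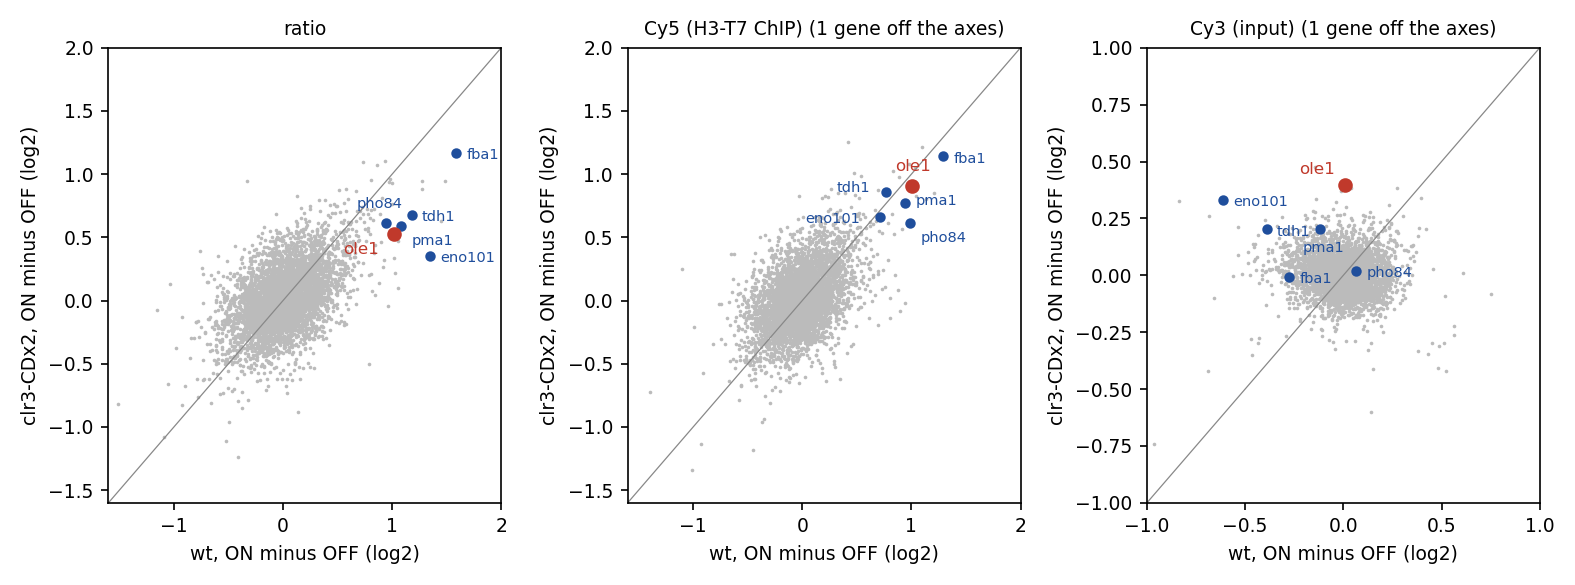
ON minus OFF (log2) of 4612 genes in wt (x axis) against clr3-CDx2 (y axis) for the ratio, Cy5 and Cy3, with ole1 in red, 5 comparison genes in blue and the line of equality. Ole1 lies below the line in the ratio (1.01 and 0.53), close to it on Cy5 (1.00 and 0.91) and at the upper margin on Cy3 (0.01 and 0.40).

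Signal differences and base composition were compared across genes, and the GC content of ole1 is given beside them. Whether base composition bears on the input of ole1 was not tested. Over 4612 genes the correlation of GC content with the ON minus OFF Cy3 difference was -0.674 in wt and 0.178 in clr3-CDx2. On Cy5 the same correlation was 0.078 in wt and 0.317 in clr3-CDx2. With the ON difference of clr3-CDx2 from wt on Cy3 it was 0.729, and with that on Cy5 0.211. These are correlations across genes of single arrays, which are not independent replicates. Ole1 had a GC content of 42.0% against a median of 36.8%, rank 185 of 4612, and its coding sequence had 49.9% against 30.5% in its leader. The wt Cy3 difference of ole1 was 0.01, while that of 13 of the 106 genes at least 1.5-fold higher in wt ON was above 0 and their median was -0.19. With the ratio of each array adjusted for GC content, an alternative chosen after seeing the data, the domain was higher in ON by 0.83 in wt and by 0.36 in clr3-CDx2, and the difference between them was 0.47. Median Cy3 signal was 13940.5 units on the clr3-CDx2 ON array and 7071 to 7755 on the others, so this array also stood apart in brightness.

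Genes of glycolysis and transport that are known for high expression gave a scale for ole1. Fba1, the glycolytic aldolase, was higher in ON by 1.59 in wt and 1.17 in clr3-CDx2. Eno101, an enolase, was at 1.35 and 0.35, with Cy3 at -0.61 in wt and 0.33 in clr3-CDx2. Tdh1, glyceraldehyde-3-phosphate dehydrogenase, was at 1.18 and 0.68, with Cy3 at -0.39 and 0.20. Pma1, the plasma membrane proton pump, was at 1.08 and 0.59, and pho84, a phosphate transporter, at 0.94 and 0.61. These genes were named with earlier results known. All 5 had a smaller difference in clr3-CDx2 than in wt, as ole1 had, and 4 of the 5 had a negative Cy3 difference in wt, the exception being pho84 at 0.07. All 5 were also at least 1.5-fold higher in wt ON, and a high wt ratio favours both traits. Of the 106 genes that high, 95 had the larger difference in wt and 13 had a wt Cy3 difference above 0. Over all 4612 genes these counts were 2166 and 2282. Nothing is therefore read from the likeness to ole1. On Cy5 the wt minus clr3-CDx2 difference was 0.15 for fba1, 0.05 for eno101, -0.09 for tdh1, 0.17 for pma1 and 0.38 for pho84, beside 0.10 for ole1. On Cy3 it was -0.27 for fba1, -0.95 for eno101, -0.59 for tdh1, -0.33 for pma1 and 0.05 for pho84, beside -0.39 for ole1. The gene clr3 itself read -0.14 in wt OFF, -0.14 in wt ON, 0.44 in clr3-CDx2 OFF and 0.94 in clr3-CDx2 ON, and since the place of the allele's change is not known, these 8 probes do not check it.

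The 106 genes at least 1.5-fold higher in wt ON include ole1. Since they were taken for a high wt difference, their wt minus clr3-CDx2 difference in the ratio is raised by that choice, and the values are a description. Their median clr3-CDx2 difference was 0.47 in the ratio and 0.53 on Cy5. Ole1 was at 0.53 and 0.91, with 45 and 9 of the 106 above it. The wt minus clr3-CDx2 difference was 0.28 in the median and 0.48 for ole1 in the ratio, and 0.03 and 0.10 on Cy5. None of the 106 had a larger clr3-CDx2 Cy3 difference than ole1, and their median there was 0.05. On Cy3 the wt minus clr3-CDx2 difference had a median of -0.26, and 81 of the 106 lay above ole1 at -0.39.

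The 6 genes nearest to ole1 in pattern were taken by the Euclidean distance over the 4 array values, each gene centred on its own mean, among 4611 genes with a median distance of 0.94. Ecm33, a cell wall protein, was nearest at 0.15, followed by tdh1 at 0.16. Tef103 and tef101, which code for elongation factor EF-1α, were at 0.19 and 0.25. Gas1, a cell wall glucan-modifying enzyme, was at 0.20, and so was mug106. Their values in the ratio were like those of ole1 by choice. In the channels they differed from it: the wt Cy3 difference was -0.31 for ecm33, -0.39 for tdh1, -0.42 for tef103, -0.16 for gas1, -0.47 for mug106 and -0.49 for tef101, against 0.01 for ole1. EF-1α genes are near-identical copies, so their probes may bind each other's DNA.

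The values of other lipid genes are given beside ole1 as a description. Ole1 was chosen for its large difference, so lists that lie below it say nothing about lipid genes. Of 68 listed genes 61 were measured, in 4 lists that were drawn up with earlier results known. In wt ON, 3 of the 61 were at least 1.5-fold higher and 1 was lower, beside 2.3% higher and 1.58% lower among all genes, and their median was 0.02 against -0.00 over all genes. In clr3-CDx2 ON, 2 were higher and 0 lower, beside 1.69% and 0.824% of all genes, with a median of 0.11 against 0.01. With counts this small, nothing is read from them about lipid genes. Of the 3 in wt, hem13, the oxygen-using coproporphyrinogen oxidase of heme synthesis, was at 0.71 in wt and 0.65 in clr3-CDx2. Sur2, a hydroxylase of sphingolipid synthesis, was at 0.69 and 0.30. The third, sfp1, was at 0.59 and 0.57 and is annotated as a transcription factor, not as a lipid enzyme.

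**Figure D5:**
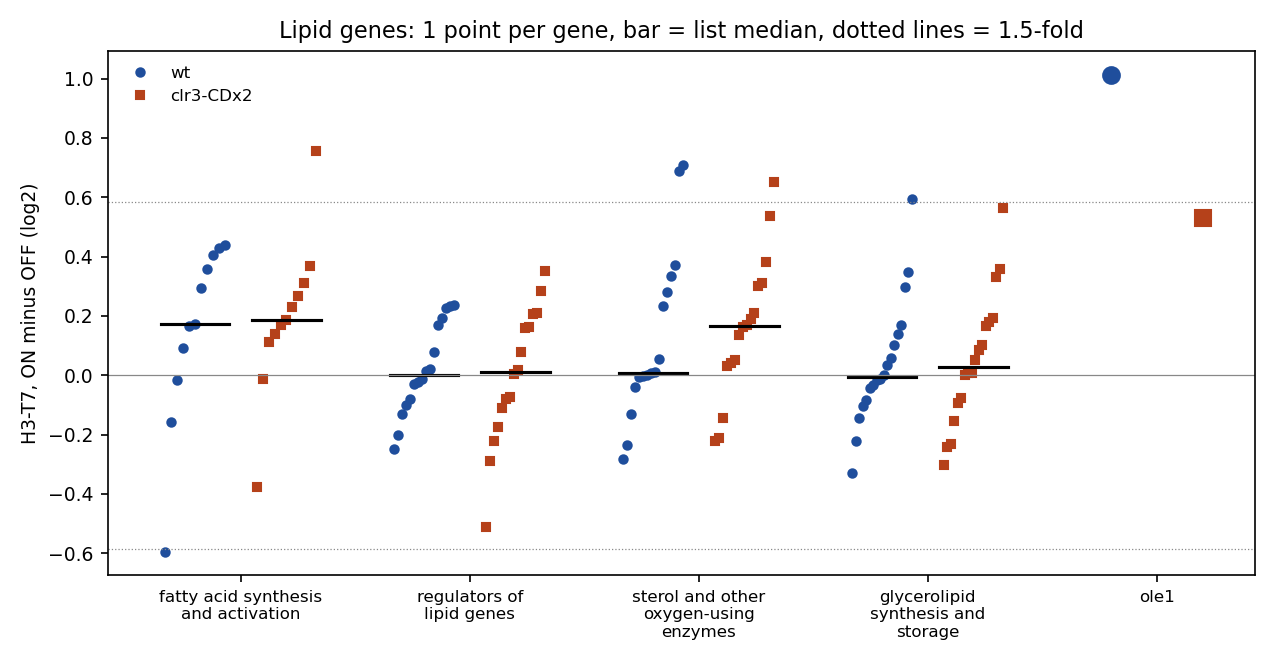
ON minus OFF of the H3-T7 ratio (log2) for the measured genes of 4 lipid lists, 1 point per gene with list medians as bars, wt in blue and clr3-CDx2 in orange, with ole1 at the right and dotted lines at 1.5-fold. Ole1 in wt, at 1.01, lies above all 61 listed genes, of which the highest in wt is hem13 at 0.71. Ole1 was chosen on this difference, so its place above the lists is a description.

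Among 11 measured genes of fatty acid synthesis and activation the median was 0.17 in wt and 0.19 in clr3-CDx2. Fas2, the alpha subunit of fatty acid synthase, was at 0.44 and -0.01. Elo1, a fatty acid elongase, was at 0.40 and 0.14, and the acyl-CoA ligase lcf1 at -0.02 and 0.27. The biotin transporter vht1 was at 0.43 in wt and 0.76 in clr3-CDx2, the highest clr3-CDx2 value of the lists. The 1 gene lower in wt, ppt1 at -0.59 and 0.23, is annotated as the polyprenyltransferase of ubiquinone synthesis.

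None of 16 regulators of lipid genes was past 1.5-fold in either genotype. With 2.3% of all genes higher and 1.58% lower in wt, and 1.69% and 0.824% in clr3-CDx2, a count of 0 in a list this short says nothing about regulators. Their differences had medians of 0.00 in wt and 0.01 in clr3-CDx2. The largest wt values were those of dsc1 (-0.25 in wt and -0.51 in clr3-CDx2), dsc3 (0.23 and 0.21), ubx3 (0.24 and 0.29) and rbd2 (0.23 and 0.16), all tied to cleavage of the sterol-sensing factor Sre1. Scp1, the partner of Sre1, was at 0.02 and -0.29, dsc4 at -0.20 and 0.08, and dsc2 at -0.08 and 0.16. The activators Cbf11 and Mga2, added here for their role at lipid genes, had values of -0.10 and 0.02 for cbf11 and -0.13 and -0.11 for mga2.

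Of 16 measured sterol and oxygen-using enzymes the median was 0.01 in wt and 0.17 in clr3-CDx2. Erg25, a sterol methyl oxidase, was at 0.37 and 0.54, and hmg1, the HMG-CoA reductase, at 0.33 and -0.22. Erg27 was at -0.28 and 0.19, and the sterol desaturase erg31 at 0.06 and 0.38. Of 18 genes of glycerolipid synthesis and storage the median was -0.01 in wt and 0.03 in clr3-CDx2. The phosphatidylserine decarboxylase psd1 was at 0.35 and 0.18, the acyltransferase slc1 at -0.33 and 0.09, and the sterol acyltransferase are1 at 0.30 and 0.17. The lipases ptl2 and ptl3 were at -0.02 and 0.33 and at -0.03 and 0.36, and the acyltransferase plh1 at 0.06 and -0.30. In this list cds1 and gpt2 carry names of lipid enzymes in budding yeast but are annotated here as a checkpoint kinase and a protein glycosylation enzyme, so the list is smaller in function than in count.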

How the data were processed

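The authors used Agilent Feature Extraction, version 12.0.3.1 per the file headers. The deposited processed signals are intensity values, background-subtracted and dye-normalized, and per the labels ChIP and input DNA was amplified by random-primed PCR. The file headers record multiplicative detrending for Cy3 everywhere and for Cy5 only in the OFF state. Differences between ON and OFF on Cy5 and in the ratio thus compare unlike processing. The authors' matrix values equal the uncentred log2 ratio of these signals at 100% of non-control spots, within 1e-06. Deposited flags (other values, 0 or 1) marked 531 outlier spots, which were left out, and 41020 probes were used. No domain spot was saturated or failed the background test, and local backgrounds were 37 to 64 units. All 4 arrays lay on 1 slide.

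Ratios and channels were centred on array medians with Python 3.11.15, and limma 3.58.1 gave a normexp alternative on the median signals, used in place of mean signals, with an offset of 50. Placement on ASM294v3 used the GC content in 300 bp windows, scanned to 8000 bp each way, and was tested on simulated data. Genes needed at least 3 probes, and 1.5-fold was the mark used for counts. No test was possible with 1 array per group, whose number limits the precision. The members and lists were chosen with earlier results of these data known. Named were ole1, its neighbours within the flanks, the 6 genes nearest in pattern, of each list the 4 with the largest wt difference and the 4 with the largest difference between genotypes, the comparison genes and clr3. There were 10 alternatives for the domain and 4 for counts.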

Additional observations from a re-analysis of the deposited data

Results flagged for a closer look

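For 2 named genes the single wt difference and the single clr3-CDx2 difference had opposite directions and lay at least 1.5-fold apart. For wtf11, the wt ON minus OFF ratio of -0.51 less the clr3-CDx2 ratio of 0.31 was -0.83. For ppt1, -0.59 in wt less 0.23 in clr3-CDx2 was -0.82. Neither difference was tested, as each group is 1 array.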

How the results depend on the processing

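No paired analysis was possible because each group is 1 array. Under 10 alternatives the domain was higher in ON by 0.83 to 1.13 in wt and by 0.15 to 0.71 in clr3-CDx2, the lowest relative to the flanks and the highest with Cy5 over the mean input of the 4 arrays. The genotype difference in OFF ranged from -0.25 to 0.13 and was above 0 relative to the flanks. The normexp alternative used median signals in place of the processed ones, so background, dye normalization and detrending changed together. With normexp on the median signals, clr3-CDx2 ON minus wt ON was -0.86 and the wt difference exceeded the clr3-CDx2 difference by 0.84. With Cy5 over the mean input, chosen after seeing the data as was the GC adjustment, that excess was 0.22, since the arrays' own inputs were then out of the ratio by construction. In the other 8 alternatives it was 0.44 to 0.72. Leaving out probes with an f or m suffix, or keeping outlier spots, could hardly move it, and each gave 0.56. No domain probe has such a suffix or an outlier mark. Apart from normexp, the ON difference was -0.71 to -0.48, the latter with Cy5 over the mean input. Of the domain results, only the genotype difference in OFF changed direction.

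Counts of genes were less stable. With normexp, 275 genes were higher in wt ON and 324 in clr3-CDx2 ON, 74 were lower in clr3-CDx2 than in wt ON, and 159 had a higher wt difference. With at least 5 probes per gene these were 70, 49, 13 and 34, and at 2-fold 14, 4, 0 and 3. With equal spread of the arrays they were 76, 51, 15 and 58. The main counts were 106, 78, 27 and 58. Fewer genes were tested with 5 probes and a higher mark was set at 2-fold; for the other settings the cause was not tested. With 1 array per group no error between cultures is known. Median signals were 4447 to 13940.5 units, against local backgrounds of 37 to 64.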
